A study of Homo sapiens with 6 samples.

Results

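Cohesin is a ring-shaped protein complex, and the transcripts of its subunits, of its loading and release factors and of its chromatin partner CTCF were followed here in MDA-MB-231, a human line of triple-negative breast cancer (TNBC) cells. The set holds 9 genes, SMC1A, SMC3, RAD21, STAG1, STAG2, NIPBL, PDS5A, PDS5B and CTCF, taken by symbol from 41471 gene symbols in the knockdown experiment and 34157 in the inhibitor experiment. The set was chosen on measured values of these libraries, because SMC1A was lower with both hairpins against CDK16. All knockdown values of the 9 genes are therefore a description without a test. All 9 passed the filter on low counts (at least 1 CPM, the count scaled to library size, on average) that left 15295 and 15655 genes in the respective experiments.

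The study asked what the loss or inhibition of CDK16, a cyclin-dependent kinase of the PCTAIRE family, does to TNBC cells. In the first experiment, cells carried a lentiviral scramble shRNA, CDK16-sh1 or CDK16-sh2, each as 1 stably infected and sorted cell population. In the second, MDA-MB-231 cells received the vehicle DMSO or Rebastinib (Reb), a multikinase inhibitor used in the study against CDK16, at 1 µM or 5 µM for 48 h. All cells grew in DMEM with serum, and each of the 6 conditions had 1 library, so no difference below has a replicate check.

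SMC1A and SMC3 are long coiled-coil ATPases that pair at a hinge, and RAD21 closes their heads into a ring. STAG1 or STAG2 binds RAD21, NIPBL with MAU2 loads the ring onto DNA, PDS5A and PDS5B act with WAPL in release and with ESCO enzymes in stable cohesion, and CTCF halts extruding rings at its binding sites. Cohesin holds sister chromatids together until separase (ESPL1) cuts RAD21 at anaphase, and in interphase it folds chromatin into loops.

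The upstream windows of SMC1A and SMC3 are shown because these genes encode the paired arms of the ring, while their transcripts did not move alike in 3 of the 4 comparisons below. Both windows were taken from the RefSeq tables for GRCh38.p14 and end at the base before the gene bounds used for counting. The SMC1A window has 250 bases, and the SMC3 window has 246 with 4 left out. Capitals mark GGGCGG, the GC box bound by Sp-type factors, or its reverse complement CCGCCC. The SMC1A window is chrX:53422729-53422978 on the minus strand and the SMC3 window is chr10:110567445-110567690 on the plus strand, both written 5′ to 3′.
SMC1A: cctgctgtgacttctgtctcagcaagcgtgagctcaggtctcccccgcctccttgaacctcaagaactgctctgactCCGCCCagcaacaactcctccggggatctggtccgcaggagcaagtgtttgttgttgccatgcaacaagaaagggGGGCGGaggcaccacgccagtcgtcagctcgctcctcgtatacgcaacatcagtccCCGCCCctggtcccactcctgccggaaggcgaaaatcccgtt
SMC3: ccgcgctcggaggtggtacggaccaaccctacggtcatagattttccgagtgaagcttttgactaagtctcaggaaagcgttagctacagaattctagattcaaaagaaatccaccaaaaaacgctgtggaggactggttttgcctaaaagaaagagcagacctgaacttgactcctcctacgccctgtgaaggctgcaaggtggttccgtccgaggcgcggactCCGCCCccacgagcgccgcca

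The SMC1A window held 3 GC boxes and the SMC3 window held 1. GC boxes were present in 42.6% of 35116 promoter windows searched over 250 bases before the start on both strands. The SMC1A window of that search began at 53422679, inside the gene's bounds, so it differs from the printed one. The SMC1A window also held 1 TGACG, a core motif of CREB-type factors present in 21.2% of windows, and 1 CCGGAAG, a site for ETS-type factors present in 8.52%. Neither letter string was found in the SMC3 window. Neither window held CCAAT (32% of windows), TTTCCCGC (1.39%) or TTTGGCGC (0.55%), the last 2 being E2F-type strings. A second annotated start of SMC1A, inside the gene's bounds, had 1 TTTCCCGC in its own window. These matches describe letters in the windows only.

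Total counts were 25838443 to 31955119 in the knockdown libraries and 37655548 to 50303269 in the Reb libraries. Mitochondrial transcripts took 7.19% to 11.3% of counts in scramble, CDK16-sh1, DMSO and Reb 1 µM, 16.2% in CDK16-sh2 and 16.4% in Reb 5 µM. The CDK16 count was 3223 with scramble, 1360 with CDK16-sh1 and 846 with CDK16-sh2, a log2 fold change of −1.52 and −1.82. With Reb, CDK16 counts were 4996, 4609 and 2797, a log2 fold change of −0.14 at 1 µM and 0.27 at 5 µM, the latter being −0.42 when libraries were scaled by their totals. VIM, CD44 and AXL, markers of this mesenchymal line, were abundant in every library, and the estrogen and progesterone receptor genes ESR1 and PGR had at most 16 counts. ERBB2 had 996 to 3396 counts, the epithelial genes EPCAM 125 to 408 and CDH1 4 to 53. SPARC, the other line marker, had 1 to 15 counts in the knockdown libraries and 283 to 1970 in the Reb libraries. Endothelial and immune markers (PECAM1, PTPRC, CD3E) summed to 0.159 to 3.1 CPM over the 6 libraries, CD3E being at 0 in all but Reb 1 µM. Their sum was 1.7 CPM with scramble, and 2.75 and 0.473 with CDK16-sh1 and CDK16-sh2. It was 3.1 CPM with DMSO, 1.94 at 1 µM and 0.159 at 5 µM. From DMSO to 1 µM, PECAM1 went from 154 to 53 counts, while PTPRC went from 2 to 35 and CD3E from 0 to 8. CDH1 went from 7 to 53 counts there, PGR from 4 to 16 and ESR1 from 2 to 12. EPCAM went from 240 to 341 and ERBB2 from 3396 to 3225. The part of all these markers in the results was not tested.

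Changes are given as log2 fold changes of a treated library against its own control, from counts scaled with edgeR's TMM method and a prior count of 2. Bracketed ranges of a single gene are 95% intervals by the Clopper-Pearson method, from how its counts divide between the treated and the control library. Those of a ratio between genes are 95% normal intervals on the log scale, from the counts of both genes in both libraries. Without molecular identifiers, both kinds cover counting error only. In bulk RNA, fewer cells of a kind and less RNA per cell cannot be told apart. Levels between genes are compared by the deposited RPKM, which divides counts by gene length and library total.

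In the scramble library the ring subunits were the most abundant of the 9 transcripts. SMC3 stood at 61 RPKM, SMC1A at 55.2 and RAD21 at 52.4, followed by CTCF at 26.7, STAG2 at 11.3, PDS5A at 8.16, STAG1 at 5.75, NIPBL at 5.16 and PDS5B at 3.27. In DMSO the ring subunits also led, with RAD21 at 130, SMC1A at 112 and SMC3 at 93.6 RPKM. With 1 library per condition there is no replicate spread against which the order of neighbours could be judged. By RPKM, SMC1A was at rank 2 in both control libraries and Reb 1 µM, at rank 3 in CDK16-sh1 and Reb 5 µM, and at rank 4 in CDK16-sh2.

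**Figure D1:**
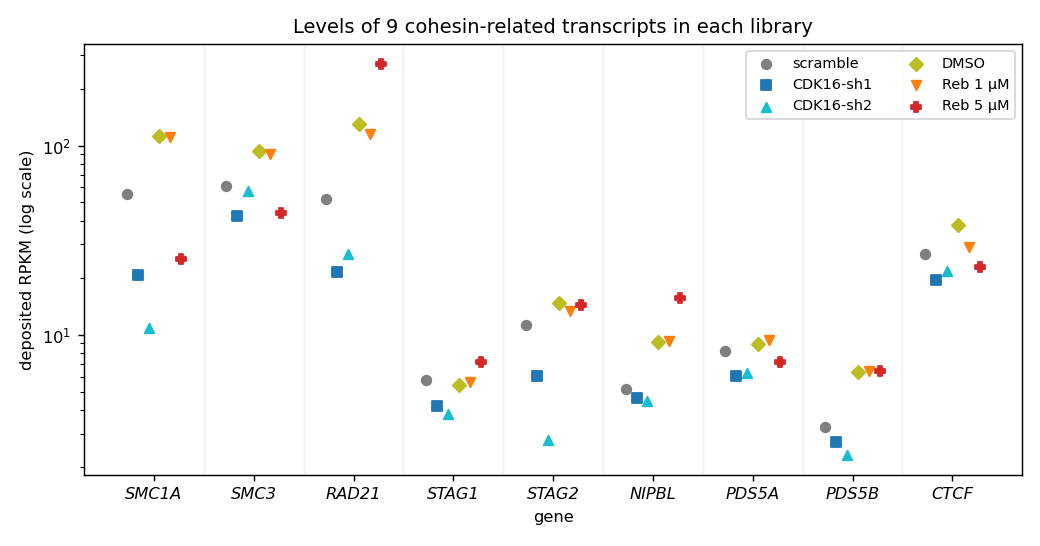
Deposited RPKM (log axis) of the 9 transcripts, with 1 point per library. SMC1A was at 55.2 RPKM in scramble and 10.8 in CDK16-sh2, and RAD21 was at 130 in DMSO and 271 at 5 µM.

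SMC1A, one arm of the ring, was lower than its control with both hairpins and at the high Reb dose. Its counts were 14946 with scramble, 6957 with CDK16-sh1 and 3116 with CDK16-sh2. They were 59243 with DMSO, 57564 at 1 µM and 9925 at 5 µM. Both hairpin libraries lay below scramble, and Reb 1 µM lay close to DMSO while Reb 5 µM lay far below it. The log2 fold change was −1.38 [−1.42, −1.34] with CDK16-sh1, −2.15 [−2.21, −2.10] with CDK16-sh2, −0.06 [−0.08, −0.05] at 1 µM and −1.47 [−1.5, −1.44] at 5 µM. Of all genes, 2.56% had a lower value with CDK16-sh1 and 0.791% with CDK16-sh2, against 41.6% at 1 µM and 17.9% at 5 µM. Over 8 processing settings SMC1A ranged from −1.41 to −1.12 with CDK16-sh1, −2.35 to −1.98 with CDK16-sh2 and −2.16 to −1.21 at 5 µM. In the files SMC1A spans 53374149 to 53422728 on the minus strand of chromosome X.

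SMC3, the other arm, was lower with CDK16-sh1, by less than SMC1A, and near scramble with CDK16-sh2. Its counts were 6743 with scramble, 5782 with CDK16-sh1 and 6753 with CDK16-sh2, and 20139, 19082 and 7071 with DMSO, 1 µM and 5 µM. The log2 fold changes were −0.50 [−0.55, −0.45], 0.11 [0.06, 0.16], −0.10 [−0.13, −0.07] and −0.40 [−0.44, −0.36]. The CDK16-sh2 value was −0.09 when libraries were scaled by their totals, so its sign depends on the scaling. Once GC and length trends were removed, the CDK16-sh1 value was −0.12. At 5 µM the value was −1.09, past 2-fold, when scaled by library totals. SMC3 lies on the plus strand of chromosome 10 from 110567691 to 110604636.

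The ratio of both arms within a library does not depend on scaling. SMC1A counts per base were 0.904 times those of SMC3 with scramble, 0.491 with CDK16-sh1 and 0.188 with CDK16-sh2. They were 1.2 times those of SMC3 with DMSO, 1.23 at 1 µM and 0.572 at 5 µM. Thus the ratio was near 1 in both controls and at 1 µM, and SMC3 was in excess in the remaining libraries. On the log2 scale the ratio changed by −0.88 [−0.95, −0.82], −2.26 [−2.34, −2.19], 0.04 [0.00, 0.07] and −1.07 [−1.12, −1.02]. The ratio is not free of trends with GC content and gene length. Once these were removed, SMC1A and SMC3 had −1.12 and −0.12 with CDK16-sh1, and −1.98 and 0.24 with CDK16-sh2. They had −0.08 and −0.27 at 1 µM, and −1.21 and −0.69 at 5 µM, where both lay closer together.

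RAD21, the kleisin that closes the ring, was lower with both hairpins and higher at 5 µM. Its counts were 8387, 4239 and 4548 in the scramble, CDK16-sh1 and CDK16-sh2 libraries. With DMSO, 1 µM and 5 µM they were 40451, 35064 and 63282, the highest count at 5 µM although that library had the smallest total of its experiment. The log2 fold change was −1.26 [−1.31, −1.21] with CDK16-sh1, −0.78 [−0.83, −0.72] with CDK16-sh2, −0.23 [−0.25, −0.21] at 1 µM and 1.75 [1.74, 1.77] at 5 µM. The value at 5 µM ranged from 1.06 to 1.82 over the settings. In each library, RAD21 counts per base were 0.859, 0.506 and 0.465 times those of SMC3 in the knockdown experiment and 1.39, 1.27 and 6.18 times in the Reb experiment, a ratio that was chosen after its values were seen.

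RAD21 shares 361 exon bases with RAD21-AS1 on the opposite strand. RAD21-AS1 counts were 228, 59 and 89 in the knockdown libraries and 1903, 1558 and 3095 in the Reb libraries, log2 fold changes of −2.18, −1.23, −0.31 and 1.81. These moved in the direction of RAD21 in all 4 comparisons. UTP23, which shares 518 exon bases with RAD21 on the opposite strand, had −0.58, −0.31, −0.24 and 1.5. UTP23 counts were 1645, 1332 and 1233 in the knockdown libraries and 4783, 4122 and 6265 in the Reb libraries. RAD21 has 6192 exon bases in all. The library kit keeps the strand, but the strand setting of the counting is not given in the sources used here. Reads in the bases shared by RAD21 and its antisense partners therefore cannot be told apart, and their part in the changes was not tested. In the files RAD21 spans 116845935 to 116874866 on the minus strand of chromosome 8.

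**Figure D2:**
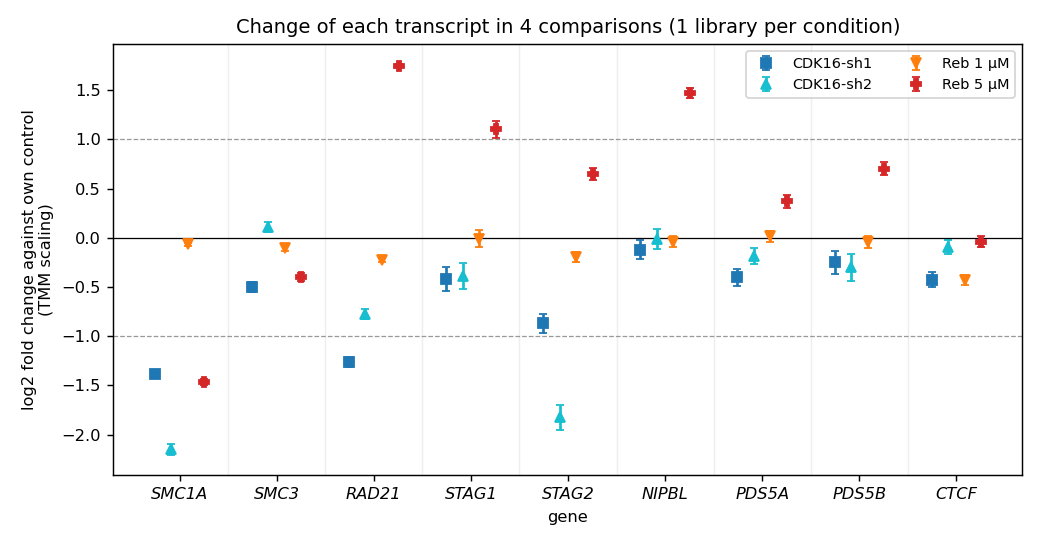
Log2 fold change of each transcript against its own control, with 95% counting intervals as bars and dashed lines at 2-fold. SMC1A and STAG2 stand lowest with CDK16-sh2 (−2.15 and −1.82), and RAD21 and NIPBL stand highest at 5 µM (1.75 and 1.47).

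STAG1 and STAG2 are alternative subunits of the ring, and STAG2 showed the larger decrease with the hairpins. STAG2 counts were 2397 with scramble, 1584 with CDK16-sh1 and 629 with CDK16-sh2, and STAG1 counts were 1165, 1053 and 826. STAG2 had log2 fold changes of −0.87 [−0.97, −0.78] and −1.82 [−1.95, −1.70], against −0.42 [−0.54, −0.30] and −0.39 [−0.52, −0.26] for STAG1, where the CDK16-sh1 value of STAG1 became 0.10 once GC and length trends were removed. STAG2 was thus past 2-fold in CDK16-sh2 only. STAG2 stood at 1.97 times STAG1 per base with scramble, 1.44 with CDK16-sh1 and 0.73 with CDK16-sh2, the 1 library where STAG1 exceeded STAG2. The log2 change of this ratio was −0.45 [−0.60, −0.30] and −1.43 [−1.61, −1.25].

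With Reb the ratio of STAG2 to STAG1 was 2.72 with DMSO, 2.37 at 1 µM and 1.99 at 5 µM. STAG2 counts were 6076, 5374 and 4426, with log2 fold changes of −0.20 [−0.25, −0.15] and 0.65 [0.59, 0.71], and STAG1 counts were 2142, 2169 and 2129, with −0.01 [−0.09, 0.08] and 1.10 [1.01, 1.19]. At 5 µM STAG2 was −0.04 when scaled by library totals, where STAG1 was at 0.41. The STAG1 value at 1 µM was between −0.16 and 0.05 over the settings.

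STAG1 shares 1664 exon bases with PCCB on the opposite strand, which had log2 fold changes of 0.20, 0.04, −0.18 and 0.14. RP11-102M11.1, a processed pseudogene on the STAG1 strand that shares no exon base with it, had 16 counts with DMSO, 4 at 1 µM and 4020 at 5 µM, a log2 fold change of 8.88 at 5 µM. Reads of such a copy may come from a parent gene, and which one was not tested. STAG2 shares 241 exon bases with TENM1 on the opposite strand, which had −1.38, −0.99, 0.03 and −1.33. STAG2 lies on chromosome X from 123960212 to 124422664 and STAG1 on chromosome 3 from 136336233 to 136752403.

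NIPBL, the loader, was close to scramble with both hairpins under TMM scaling and higher at 5 µM. Its counts were 1669, 1859 and 1535, log2 fold changes of −0.12 [−0.22, −0.02] and −0.01 [−0.11, 0.09] that became 0.50 and 0.31 once GC and length trends were removed. With Reb they were 5784, 5730 and 7416, with −0.04 [−0.09, 0.02] at 1 µM, which was 0.01 when scaled by library totals, and 1.47 [1.42, 1.52] at 5 µM. The 5 µM value ranged from 0.77 to 1.53. NIPBL lies on chromosome 5 from 36876759 to 37066413, and KRT18P31, a pseudogene within its bounds, had 6, 2 and 86 counts with DMSO, 1 µM and 5 µM.

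PDS5A and PDS5B, scaffolds that bind RAD21, changed less than 2-fold in every comparison. PDS5A counts were 2573, 2354 and 2097 in the knockdown libraries and 5507, 5661 and 3291 in the Reb libraries. PDS5B counts were 1116, 1138 and 839, and 4228, 4185 and 3197. PDS5A had log2 fold changes of −0.40, −0.19, 0.02 and 0.37, and PDS5B had −0.25, −0.30, −0.04 and 0.70. Among these 8 values, that of PDS5B at 5 µM kept its sign over the settings, at 0.01 to 0.77, and the other 7 changed sign in at least 1. Per base, PDS5A stood at 2.5, 2.24 and 2.71 times PDS5B in the knockdown libraries and 1.41, 1.46 and 1.11 times in the Reb libraries. PDS5A lies on chromosome 4 from 39822863 to 39977956 and PDS5B on chromosome 13 from 32586427 to 32778019.

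CTCF, the zinc-finger protein that stops loop extrusion, was the member with the lowest value at 1 µM. Its counts were 2965, 2669 and 2584 with scramble, CDK16-sh1 and CDK16-sh2, with log2 fold changes of −0.43 [−0.50, −0.35] and −0.09 [−0.17, −0.02]. With DMSO, 1 µM and 5 µM they were 8183, 6169 and 3702, with −0.43 [−0.48, −0.38] and −0.04 [−0.09, 0.02], where the 5 µM value was −0.73 when scaled by library totals and 0.03 with DESeq2 size factors. Of all genes, 12.2% had a lower value than CTCF at 1 µM. CTCF lies on chromosome 16 from 67562407 to 67639183.

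As a set, the 9 transcripts were lower with the hairpins, as their selection already favours, and nothing is read from these counts. With CDK16-sh1, 2 of 9 were at least 2-fold lower (SMC1A and RAD21; 6.86% of all genes) and 0 at least 2-fold higher (4.33%). With CDK16-sh2, 2 of 9 were at least 2-fold lower (SMC1A and STAG2; 7.62%) and 0 higher (2.2%). SMC1A alone was at least 2-fold lower with both hairpins (1.44% of all genes), and 8 of 9 were lower at all with both (30.9%), SMC3 being the exception. Nearest to the 2-fold threshold were RAD21 with CDK16-sh1 inside it at −1.26, and STAG2 with CDK16-sh1 and RAD21 with CDK16-sh2 outside it at −0.87 and −0.78. With GC and length trends removed, RAD21 with CDK16-sh1 was −0.86 and no longer past 2-fold. The median of the 9 log2 fold changes was −0.43 against 0.00 for all genes with CDK16-sh1, and −0.30 against 0.02 with CDK16-sh2. Scaled by library totals, 11.1% of all genes were at least 2-fold lower with CDK16-sh2 and 0.994% at least 2-fold higher, and the median of the 9 was −0.50 against −0.18.

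Base composition moved with these values. When tested genes were split into 5 equal bins by GC content, 7 of the 9 genes lay in the lowest bin, CTCF in the next and SMC1A in the middle one. With CDK16-sh1 the median log2 fold change went from −0.38 in the lowest GC bin to 0.42 in the highest. With CDK16-sh2 it went from −0.10 to 0.10. Once GC and length trends were removed, the median of the 9 was −0.12 and −0.04 with the respective hairpins, while SMC1A was −1.12 and −1.98. SMC1A and STAG2 are both on chromosome X, where the median of 497 genes was −0.13 and 0.00.

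With the hairpins, the genes beside SMC1A did not share its decrease. Of the 3 nearest expressed genes on each side, KDM5C, IQSEC2, RP11-258C19.7, RIBC1 and HUWE1 had log2 fold changes between −0.27 and 0.22 with both hairpins. HSD17B10, a mitochondrial dehydrogenase gene next to RIBC1, had 948 counts with scramble, 4577 with CDK16-sh1 and 2316 with CDK16-sh2, or 1.99 and 1.39. RIBC1 shares 39 exon bases with SMC1A on the opposite strand and had 53 to 75 counts in the knockdown libraries. At 5 µM, where SMC1A was also lower, all 6 neighbours were below DMSO, as were 51.7% of all genes. HSD17B10 was at −0.34, RP11-258C19.7 at −0.67, KDM5C at −0.92, HUWE1 at −1.09, RIBC1 at −1.10 and IQSEC2 at −4.23. Counts at 5 µM were as low as 18 for RIBC1, 20 for RP11-258C19.7 and 25 for IQSEC2. With DMSO these were 86, 70 and 1055. Whether the region moved together was not tested.

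The selection rule used no Reb values, although the members were chosen with earlier results of these data known. At 1 µM they stayed within 2-fold of DMSO, with CTCF furthest from it at −0.43. At 1 µM, 0 of 9 were at least 2-fold lower (1.92% of all genes) and 0 at least 2-fold higher (1.28%), with a median of −0.06 against 0.00 for all genes. At 5 µM, 1 of 9 was at least 2-fold lower (SMC1A; 27.2% of all genes) and 3 at least 2-fold higher (RAD21, NIPBL and STAG1; 23.6%). The median of the 9 was 0.65 against −0.07 for all genes. Scaled by library totals, the median of the 9 was −0.04 and that of all genes −0.75, 2 of 9 were at least 2-fold lower (43.4% of all genes) and 1 higher (11.7%), so changes at 5 µM hold relative to the other transcripts. The 5 µM library also had medians of 0.39 in the lowest and −0.54 in the highest GC bin, and with GC and length trends removed the median of the 9 was 0.48.

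When both doses were pooled and set against DMSO, the quasi-likelihood test of edgeR called 0 of 9 lower (0.00639% of all genes) and 0 higher (0.0703%) at a Benjamini-Hochberg adjusted p of at most 0.05 and at least 2-fold, with 0 of 9 at an unadjusted p under 0.05 and 0 called by DESeq2. In this test the difference between the doses counts as spread. With dose as a linear term on the scale of log2(dose + 1), 0 of 9 were called lower (11.1%) and 2 higher (13.3%). These were RAD21, with a fitted log2 fold change of 1.85 at 5 µM and an edgeR adjusted p of 0.0339, and NIPBL, with 1.54 and an edgeR adjusted p of 0.0467. SMC1A had a fitted −1.56 with an edgeR adjusted p of 0.117. The linear fit has 1 residual degree of freedom over 3 libraries and rests on the single 5 µM library.

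**Figure D3:**
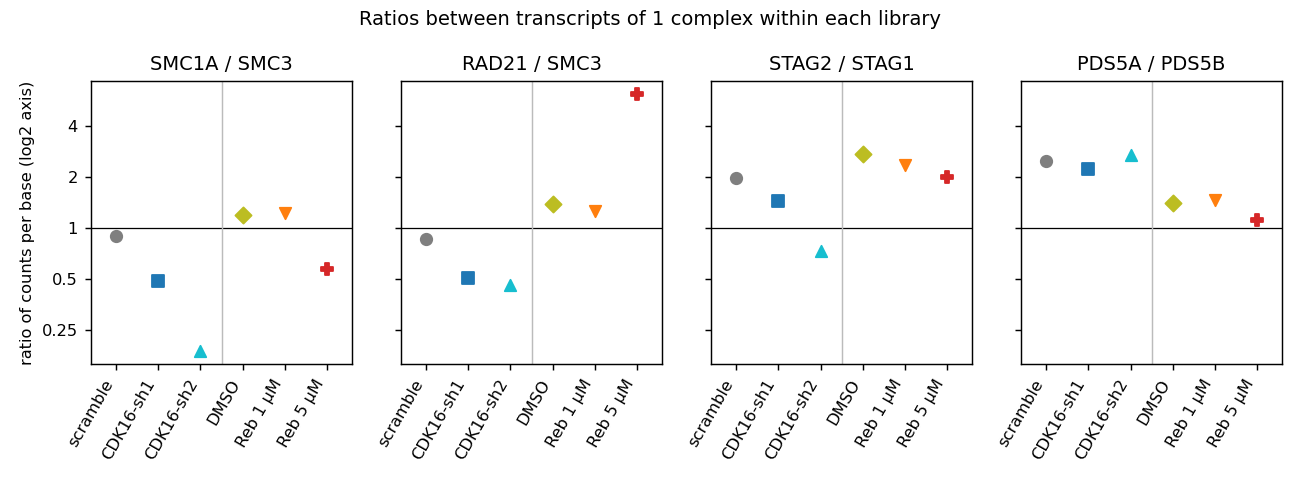
Ratio of counts per base of paired transcripts within each library (log2 axis, line at 1). SMC1A to SMC3 is lowest in CDK16-sh2 (0.188), STAG2 to STAG1 is below 1 in CDK16-sh2 (0.73), and RAD21 to SMC3 is highest at 5 µM (6.18).

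Cohesin regulators outside the set were compared next. Of the 10 regulators, 0 were at least 2-fold lower with CDK16-sh1 (6.86% of all genes) and 1 with CDK16-sh2 (7.62%). At 1 µM 0 were (1.92%), and at 5 µM 4 were (27.2%). In each of the 4 comparisons 0 were at least 2-fold higher, against 4.33%, 2.2%, 1.28% and 23.6% of all genes in the same order. The 4 regulators at 5 µM lay further below DMSO than any of the 9 transcripts. Their medians were −0.33, −0.35, −0.12 and −0.73. MAU2, the partner of NIPBL in the loader, had 1171 counts with DMSO, 887 at 1 µM and 58 at 5 µM, a log2 fold change of −3.20 [−3.63, −2.85] at 5 µM, where NIPBL had 1.47. ESPL1, the separase that cuts RAD21, had 1961, 1083 and 54 counts and −4.05 [−4.49, −3.68] at 5 µM. SGO1, which protects cohesin at centromeres, had 2159, 1909 and 84 counts and −3.56 [−3.91, −3.26]. ESCO2, an acetyltransferase of SMC3, had 687, 639 and 29 counts and −3.41 [−4.05, −2.92]. These 4 values kept their sign over all 8 settings, with the nearest to 0 at −2.44 for MAU2.

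With the hairpins the same regulators moved less. MAU2 had 1103, 1388 and 665 counts with scramble, CDK16-sh1 and CDK16-sh2, or 0.05 and −0.62. ESCO2 had 382, 237 and 156 counts, or −0.96 and −1.18 [−1.46, −0.91], which came as near to 0 as −0.42 and −0.93 over the settings. SGO1 had −0.24 and −0.35 and ESPL1 −0.06 and −0.34, the CDK16-sh1 values of both changing sign in at least 1 setting.

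Genes for cohesion at the replication fork and for related SMC complexes completed the comparison. Of 5 replication-coupled genes, 1 was at least 2-fold lower with each hairpin, 0 at 1 µM and 3 at 5 µM (27.2% of all genes), with medians of −0.25, −0.42, −0.08 and −1.11. DSCC1, a clamp-loader subunit, was that gene with both hairpins, at 713, 348 and 330 counts or −1.31 [−1.5, −1.12] with CDK16-sh1, and it lay at the 2-fold threshold with CDK16-sh2 [−1.20, −0.81]. Of 14 genes of condensin and the SMC5/6 complex, 3, 2, 0 and 7 were at least 2-fold lower and 0, 0, 0 and 2 higher in the same order, with medians of −0.43, −0.39, −0.09 and −1.15. Of all genes, 6.86%, 7.62%, 1.92% and 27.2% were at least 2-fold lower in that order, and 23.6% at least 2-fold higher at 5 µM. SMC4, a condensin ATPase, had 6374, 2836 and 2728 counts with scramble, CDK16-sh1 and CDK16-sh2, or −1.44 [−1.51, −1.38] and −1.12 [−1.18, −1.05], which came as near to 0 as −0.87 and −0.85 over the settings. Of 5 meiotic cohesin and CTCF paralogs, 2 (STAG3 and REC8) passed the filter and neither was past 2-fold in any comparison.

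**Figure D4:**
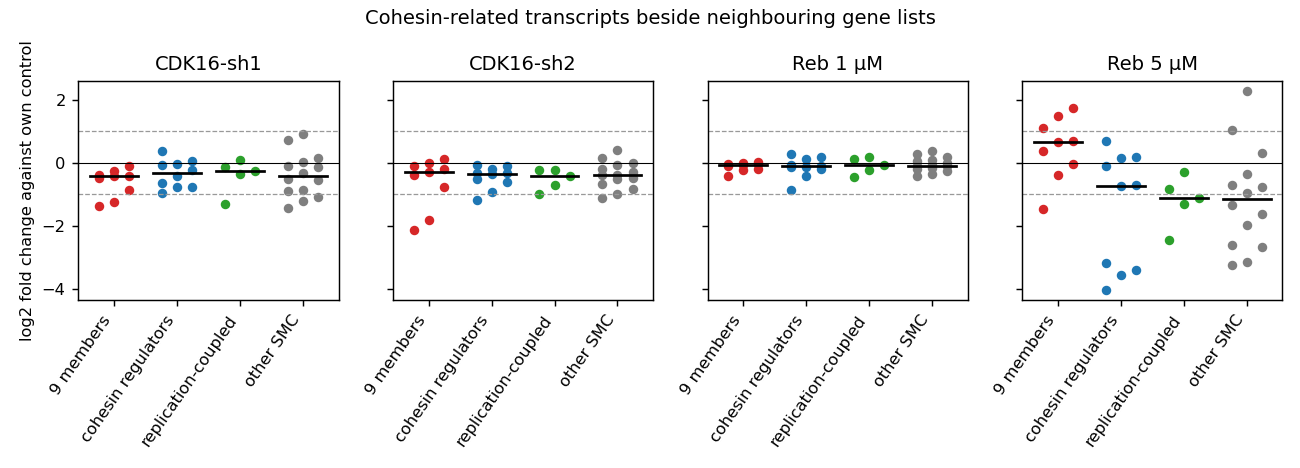
Log2 fold change of single genes (points) and list medians (bars) for the 9 transcripts and 3 gene lists in each comparison, with dashed lines at 2-fold. At 5 µM the median was 0.65 for the 9 transcripts, −0.73 for cohesin regulators, −1.11 for replication-coupled genes and −1.15 for the other SMC complexes.

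The genes with the pattern most like SMC1A were MYLK, PRKACB, RP11-516C1.1, FBXO21 and KCTD12. Likeness was the Euclidean distance over the 4 log2 fold changes, which share 2 controls, among genes averaging 5 CPM or more in each experiment. MYLK, a myosin light chain kinase, lay at a distance of 0.24 with −1.49, −2.15, −0.28 and −1.42, and PRKACB, a catalytic subunit of protein kinase A, at 0.30 with −1.47, −2.07, 0.16 and −1.62. The other 3 lay at 0.46 to 0.69. The closest of the set was STAG2, at a distance of 2.21 and rank 1021.

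Both control libraries also differed in the set. With all 6 libraries scaled together, each of the 9 transcripts was higher in DMSO than in scramble, with a median of 0.73 on the log2 scale. Values went from 0.03 for STAG1 to 1.13 for SMC1A and 1.42 for RAD21. By the deposited RPKM, STAG1 was lower in DMSO, at 5.43 against 5.75 with scramble, so its direction depends on the scaling. The median of 15752 genes was 0.00, their median absolute difference was 0.56 and 25% differed by at least 2-fold. SPARC was higher in DMSO by 6.10 on the log2 scale, and whether both experiments used the same stock of MDA-MB-231 is not given in the sources used here. The controls differ in lentiviral infection, sorting and vehicle, and these and any difference between the experiments cannot be told apart. Levels are therefore compared within an experiment only.

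**Figure D5:**
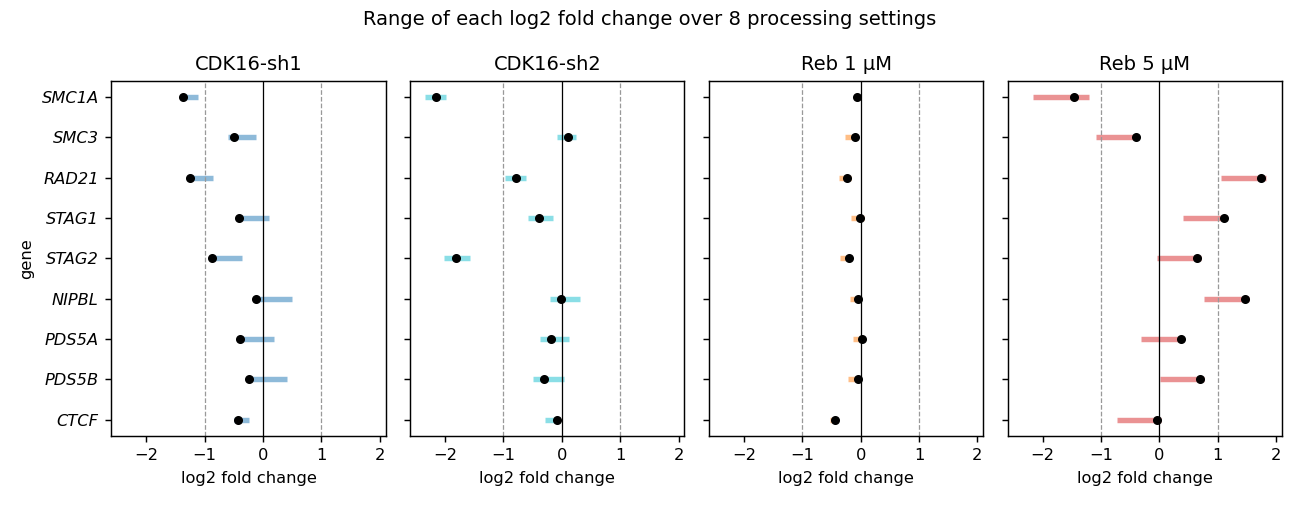
Log2 fold change of each transcript with TMM scaling (points) and its range over 8 processing settings (lines), with dashed lines at 2-fold. SMC1A stays below 0 in all 4 panels, while STAG2, PDS5A and CTCF cross 0 at 5 µM.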

How the data were processed

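Messenger RNA of 6 MDA-MB-231 libraries, 1 per condition, was analysed. The deposited tables hold the authors' read counts per gene symbol without normalization, on GRCh38 coordinates, and RPKM that the authors calculated from the same counts. The submitters' processing notes name Trimmomatic, featureCounts and Subread 1.5.1. The aligner and the annotation are not given in the sources used here. In the tables, 28 and 27 symbols had been turned into dates and match no name.

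Fold changes on the log2 scale came from edgeR 4.0.16 in R 4.3.3 (TMM scaling, prior count of 2, mean of at least 1 CPM). The Reb libraries were tested with edgeR's quasi-likelihood test over all genes. The test with pooled doses was also run on simulated counts in which both doses changed alike. Such counts lack a difference between the doses, so nothing is concluded from that run. As in the study, 2-fold was the threshold. Total counts were 25838443 to 50303269, and the width of a gene's counting interval was set by its own counts. The members and gene lists were chosen with earlier results of these data known. Named were the 9 members, CDK16, list genes past 2-fold in the same direction in both treated libraries, regulators past 2-fold in any comparison, the 5 genes most like SMC1A, and its 3 neighbours on each side and overlapping genes. Markers were named after their values were seen. GC content came from GENCODE 29 for 99.1% of tested genes. Alternatives were library totals, DESeq2 1.42.0 size factors and test, limma 3.58.1 on log2(RPKM + 0.1), a prior count of 0.5, no filter, a 1.5-fold threshold, a linear dose term, and removal of length with expression trends or GC with length trends (mgcv 1.9.3).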

Additional observations from a re-analysis of the deposited data

How the results depend on the processing

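Of 134 alternative values, 100 stayed within the counting interval or within 1.5 times the count, and 34 did not. For the median of the 9, the range used ran between the medians of the 9 genes' lower and upper bounds. That range is not a counting interval of the median itself. The 100 include within-library ratios taken again from the deposited RPKM, which comes from the same counts, so their agreement was fixed in advance. They also include member counts that were 0 under both settings compared, and values with a prior count of 0.5, which is small beside the members' counts. The number 100 is therefore no measure of robustness. Library totals and RPKM are also nearly the same scaling. For GC and length trends removed, counts of members past 2-fold are not among the 134. SMC1A with CDK16-sh1 was −1.18 with length and expression trends removed and −1.12 with GC and length trends removed, where the median of the 9 was −0.12. With CDK16-sh2, SMC1A and the median were −2.35 and −0.50 with library totals, −2.34 and −0.48 with the deposited RPKM, and −1.98 and −0.04 with GC and length trends removed. At 1 µM they were −0.01 and −0.01 with library totals and with RPKM, and −0.08 and −0.21 with GC and length trends removed, and SMC1A was −0.03 with length and expression trends removed. At 5 µM they were −2.16 and −0.04 with library totals and with RPKM, −1.41 and 0.71 with DESeq2 size factors, −1.67 and 0.45 without the filter, −1.99 and 0.42 with length and expression trends removed, and −1.21 and 0.48 with GC and length trends removed. At 5 µM, 2 members were at least 2-fold lower and 1 higher with library totals (43.4% and 11.7% of all genes). The same counts held with RPKM (41.5% and 11.1% of all genes). At 1.5-fold, 5 were higher, and the share of all genes at that threshold was not calculated. The linear dose term called 2 higher. The cause of these shifts was not tested, beyond the trend each setting removes.

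Of 36 member and comparison pairs, 21 kept 1 sign in all 8 settings. Of all genes past 2-fold, 53.5% were lower at 5 µM, and 78.7% with library totals, and 77.6% and 91.8% with CDK16-sh2. No replicate could be left out with 1 library per condition. No paired analysis was possible because the groups hold 1 library each.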
